A study of Mus musculus with 10 samples.

Results

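Voltage-gated sodium channels carry the inward current that starts and spreads the action potential, so the amount of each subunit helps to set how readily a neuron fires. A channel is built from 1 pore-forming alpha subunit, which alone conducts sodium, and smaller beta subunits with a single membrane span, which alter gating and surface level and act as adhesion molecules. In the cortex the channels are concentrated at the axon initial segment, where spikes begin, and at the nodes of Ranvier of myelinated axons. The members described here are 7 genes of 13661 in the authors' deposited table, chosen by gene symbol: the 4 brain alpha subunits Scn1a, Scn2a, Scn3a and Scn8a and the 3 beta subunits Scn2b, Scn3b and Scn4b.

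The table compares the cortex of 5 male mice carrying a Chd8 knock-in allele (KI, genotype "Chd8 KI") with that of 5 male wild-type mice (WT), all at 8 weeks of age, by poly(A) RNA-seq. The series title describes the model as a duplication of Chd8, a gene for a chromatin remodeller related to autism. The construct, its promoter, its site of insertion and the strain of the animals are not stated by the labels. Values of single libraries were not analysed here, so no level per animal, no spread between animals and no depth per library is known. Each gene has 1 mean normalised count over all 10 libraries, 1 log2 fold change and the standard error (SE) of that value.

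None of the 7 subunits changed detectably. Of the 7, 0 passed an adjusted p of 0.05 by the DESeq2 Wald test in the authors' deposited table, 0 of 7 had an unadjusted p under 0.05, and the unadjusted p-values ran from 0.164 for Scn3b to 0.723 for Scn2b. Over all 13660 genes tested, 0.0732% passed the adjusted threshold and 3.22% had an unadjusted p under 0.05, so a count of 0 among 7 genes is near the background. The log2 fold changes, read as KI over WT, were between -0.072 for Scn4b and 0.072 for Scn3b, with 5 positive and 2 negative, and their median of 0.042 stands beside a median of 0.0025 over all genes tested. The 95% intervals of all 7 included 0. The widest bounds were a level 16.4% lower in KI than in WT (Scn4b, -16.4%) and one 17.1% higher (Scn8a), so changes beyond these bounds lie outside every subunit's interval.

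The duplicated gene itself gives the scale of this comparison. Chd8 rose in the authors' deposited table, with a log2 fold change of 0.49 (SE 0.10, adjusted p = 0.0044 by the DESeq2 Wald test; 95% interval 0.29 to 0.69) and a mean normalised count of 2474. Since the header names no direction, KI over WT was inferred from Chd8 being higher, and each sign given here depends on that. The upper bound of each of the 7 subunits, at most 0.23, lay below the lower bound of Chd8.

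**Figure D1:**
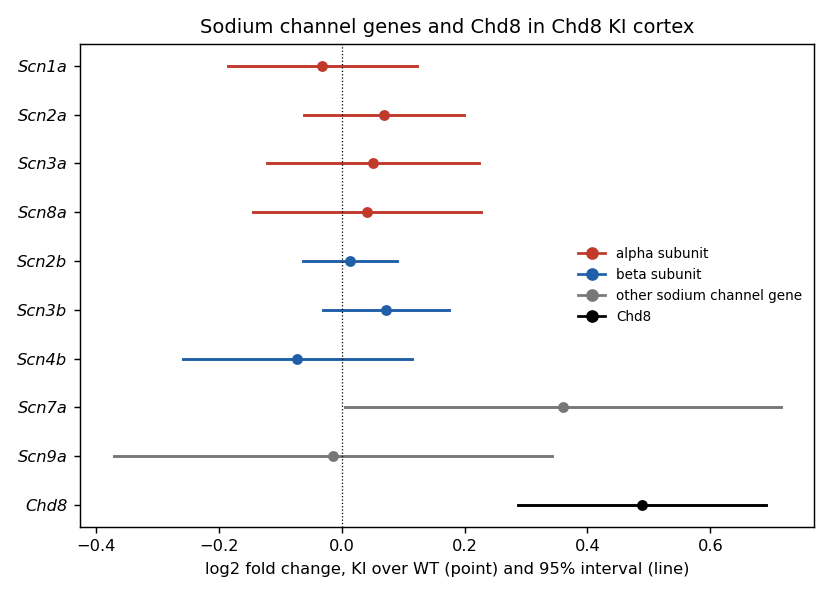
Log2 fold change, KI over WT, from the authors' deposited table (points) with 95% normal intervals (lines) for the 4 alpha subunits (red), the 3 beta subunits (blue), Scn7a and Scn9a (grey) and Chd8 (black). The 7 subunits lie between -0.072 and 0.072 with intervals that include 0, and Chd8 stands apart at 0.49.

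Among the alpha subunits, Scn2a encodes Nav1.2, the channel of the axons and dendrites of excitatory cortical neurons and, in humans, a gene with recurrent autism mutations. It had the highest mean normalised count of the members before division by length, 8402 over the 10 libraries, higher than 97.7% of genes tested. Its log2 fold change was 0.069 (SE 0.066, unadjusted p = 0.297, adjusted p = 0.9999 by the DESeq2 Wald test) in the authors' deposited table, which is 4.89% higher in KI with a 95% interval of -4.11% to 14.7%.

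Scn8a encodes Nav1.6, the channel with a low activation threshold at the distal initial segment and the main one of mature nodes. Its mean normalised count was 7419 in the authors' deposited table, and its log2 fold change was 0.042 (SE 0.095, unadjusted p = 0.661 by the DESeq2 Wald test), an interval of -9.51% to 17.1%. This is the widest interval among the alpha subunits, although the gene is the second most abundant of the 4.

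Scn1a encodes Nav1.1, which in the cortex is most prominent in parvalbumin-positive interneurons and whose loss in humans causes Dravet syndrome. It was the 1 alpha subunit with a negative value, a log2 fold change of -0.031 (SE 0.079, unadjusted p = 0.690 by the DESeq2 Wald test) at a mean normalised count of 3810 in the authors' deposited table. Its interval ran from -12.1% to 8.90%. Scn3a encodes Nav1.3, which in rodents is expressed mostly before and shortly after birth. It was the least abundant member, with a mean normalised count of 1213, and its log2 fold change in the authors' deposited table was 0.052 (SE 0.088, unadjusted p = 0.557 by the DESeq2 Wald test), an interval of -8.03% to 16.8%.

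The beta subunits fall into 2 kinds by how they attach to the alpha subunit: the products of Scn2b and Scn4b through a disulfide bond, that of Scn3b without one. Scn2b was the most tightly measured member. At a mean normalised count of 6913 its log2 fold change was 0.014 (SE 0.039, unadjusted p = 0.723 by the DESeq2 Wald test) in the authors' deposited table, and the interval of -4.22% to 6.41% spans only a few percent on either side of 0. Scn3b had the largest positive value and the smallest p of the members, a log2 fold change of 0.072 (SE 0.052, unadjusted p = 0.164 by the DESeq2 Wald test; -2.03% to 12.8%) at a mean normalised count of 2744 in the authors' deposited table. It stood 1549th by p among the 13660 genes tested.

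Scn4b encodes the subunit whose intracellular tail is known to block the open pore and so to give rise to resurgent sodium current. Its value was the lowest of the members, a log2 fold change of -0.072 (SE 0.095, unadjusted p = 0.449 by the DESeq2 Wald test; -16.4% to 8.25%) at a mean normalised count of 6385 in the authors' deposited table. The gene is also expressed in projection neurons of the striatum. All 9 of 9 listed striatal markers had a negative log2 fold change (median -0.091) in the authors' deposited table, none of them past the threshold. Of all genes tested, 51.6% were positive. The smallest unadjusted p of the 9 was 0.162 (Drd1, DESeq2 Wald test), and the 9 values come from the same animals. The part of the striatal markers in the value of Scn4b was not tested. In bulk tissue, fewer cells of a type and less RNA per cell cannot be told apart.

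Differences between members cannot be tested from this table, because the values of a pair of genes share the same animals and their covariance is not known. The 7 intervals have a range in common, from a log2 fold change of -0.030 to 0.090, which is -2.03% to 6.41%. The 4 alpha subunits had a median of 0.047 with 3 positive, and the 3 beta subunits a median of 0.014 with 2 positive, in the authors' deposited table.

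Scn2b and Scn4b are neighbours on mouse chromosome 9. In the RefSeq annotation of GRCm38, the assembly behind mm10, Scn2b spans 45117876 to 45130070 and Scn4b 45138624 to 45154155, both on the plus strand with 8.55 kilobases between them, while Scn3b lies 4.83 megabases away at 40269216 to 40291618. The upstream sequences of this pair are shown because the genes are adjacent and similar in level, yet their promoters differ in sequence. Neither gene changed detectably, and a link between promoter sequence and fold change was not tested. Below are the 250 bases before each annotated start from RefSeq (GRCm38.p6, plus strand, 5′ to 3′; Scn2b chr9:45117626-45117875, Scn4b chr9:45138374-45138623), with each CG dinucleotide in capitals.
Scn2b: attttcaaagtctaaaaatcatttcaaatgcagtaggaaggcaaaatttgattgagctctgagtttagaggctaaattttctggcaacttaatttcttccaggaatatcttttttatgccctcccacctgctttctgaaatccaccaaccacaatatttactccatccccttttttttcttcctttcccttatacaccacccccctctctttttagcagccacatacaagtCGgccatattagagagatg
Scn4b: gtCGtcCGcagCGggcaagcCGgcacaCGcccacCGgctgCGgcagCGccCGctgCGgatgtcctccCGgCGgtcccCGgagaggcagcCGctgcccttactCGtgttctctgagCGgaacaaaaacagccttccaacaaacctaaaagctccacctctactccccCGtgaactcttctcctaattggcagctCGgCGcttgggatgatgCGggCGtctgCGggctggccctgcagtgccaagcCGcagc
The Scn2b stretch holds 1 CG dinucleotide and 38.4% G and C, and the Scn4b stretch holds 23 and 66.0%.

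RefSeq windows of 300 bases, 50 of them past the start, were at hand for 5 of the 7 members, those other than Scn3a and Scn3b. Counted over these windows, Scn4b had 26 CG dinucleotides and the 2 windows of Scn8a had 38 and 12. Scn2b had 2, Scn1a had 5, and the 2 windows of Scn2a had 3 and 9. The annotated span of Scn8a begins at 100869863, before the first of its windows (100870395 to 100870694), so the sequence at that start was not counted. The median over 32851 such windows was 7, and 4.45% of them held more than the first window of Scn8a. The letters TATAAA, searched on both strands, were found in 13.6% of all windows and in 1 of the 7 member windows, the second of Scn2a. Values are for whole genes, so reads from different starts of Scn2a or of Scn8a cannot be told apart.

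The alpha subunit genes stand in 2 places. Scn3a (65457118 to 65567591), Scn2a (65620764 to 65767447) and Scn1a (66270781 to 66440837) lie on chromosome 2 in a cluster that ends with Scn9a and Scn7a and spans 1.33 megabases, and Scn8a lies alone on chromosome 15 (100869863 to 101045938; GRCm38 throughout). The cluster holds 8 genes of the table, 5 of them sodium channel genes. None of the 8 passed the threshold and 5 had a positive log2 fold change, with the 3 other genes Csrnp3 at 0.014 (SE 0.061), Ttc21b at 0.20 (0.15) and Gm13629 at -0.11 (0.21) in the authors' deposited table. No exon of any of the 7 members overlaps an exon of another gene in the GENCODE M21 annotation.

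Levels were compared between genes after division by length, since longer transcripts give more reads. Per kilobase of all annotated exons, the mean normalised count was 1485 for Scn2b, 1282 for Scn4b, 660 for Scn2a, 503 for Scn3b, 471 for Scn8a, 342 for Scn1a and 97.4 for Scn3a. The beta subunits Scn2b and Scn4b thus stood above every alpha member on this scale, and Scn2a stood 6.77 times above Scn3a and 1.40 times above Scn8a. The order of the 7 was the same per kilobase of the longest transcript, where the ratio of Scn2b to Scn2a was 1.58 in place of 2.25. With no value per animal, whether neighbours in this order, such as Scn3b and Scn8a, differ beyond the spread between animals is not known.

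**Figure D2:**
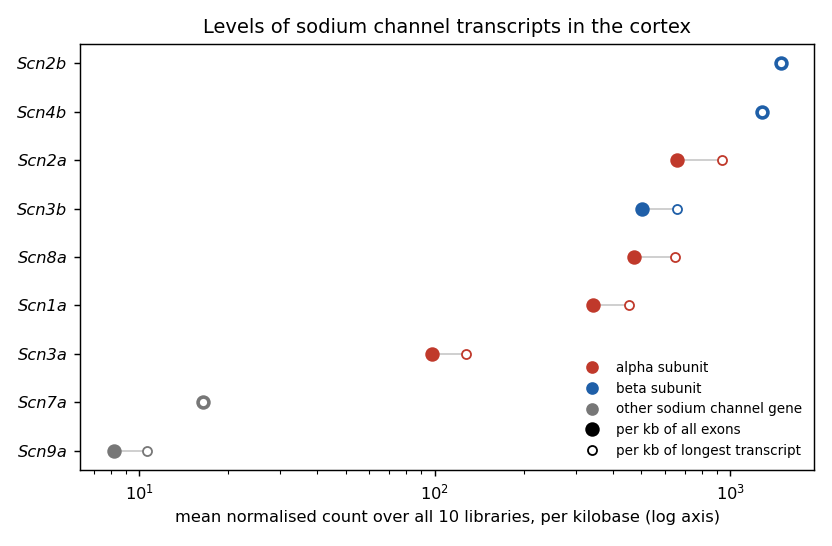
Mean normalised count over all 10 libraries per kilobase (log axis) for the 7 members, Scn7a and Scn9a, per kilobase of all exons (filled) and of the longest transcript (open). Among the 7 members Scn2b is highest at 1485 and Scn3a lowest at 97.4 per kilobase of all exons.

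Other voltage-gated sodium channel genes were far less abundant where they are described here. Scn9a, an alpha subunit gene best known from peripheral neurons, and Scn7a, which encodes the sodium sensor Nax, were at 8.18 and 16.4 mean normalised counts per kilobase of exon, so that Scn3a stood 11.9 times above Scn9a and 5.95 times above Scn7a. Scn7a had a log2 fold change of 0.36 (SE 0.18, unadjusted p = 0.0465, adjusted p = 0.9999 by the DESeq2 Wald test) and Scn9a one of -0.014 (0.18) in the authors' deposited table. Neither passed the threshold.

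**Figure D3:**
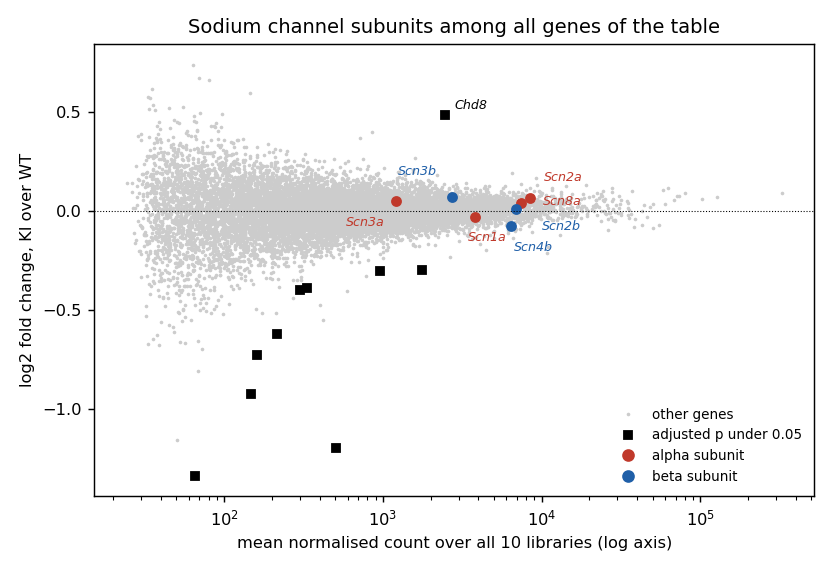
Log2 fold change, KI over WT, against the mean normalised count over all 10 libraries (log axis) in the authors' deposited table, for genes with a symbol (grey), those with an adjusted p under 0.05 (black squares) and the 7 subunits (red alpha, blue beta). The subunits lie in the right part of the cloud, at counts from 1213 to 8402, and inside its vertical spread, while Chd8 and the other called genes lie at or beyond its edge.

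How small an estimated change could have been called differed from member to member. At the observed 10 calls, a further gene needed an unadjusted p of about 4.0e-05, that is a log2 fold change of 4.11 times its SE. For Scn2b this is 0.16 (a level 1.12 times that of WT), for Scn3b 0.21, for Scn2a 0.27, for Scn1a 0.32, for Scn3a 0.36 and for both Scn8a and Scn4b 0.39 (1.31 times). These are cutoffs on the estimate, not on the true shift. An estimate below its cutoff would not have been called, which is not the same as an absent change.

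The standard errors themselves differed between the subunits. Each was set beside the 200 genes nearest in mean normalised count, and 5 of the 7 members had a larger standard error than the median of those neighbours. For Scn8a it was 0.095 against a median of 0.050, with 6% of the neighbours above it, and for Scn4b 0.095 against 0.051, with 7% above. Scn2b (0.039 against 0.050) and Scn3b (0.052 against 0.055) were the 2 below. If the deposited standard errors are those of an unshrunken fit with equal library sizes, a coefficient of variation between libraries of one genotype follows from them. With the part of read counting taken off, it ran from 4.07% for Scn2b to 10.3% for Scn4b and Scn8a. Read counting alone would give at most 2.87%. These values are implied by the fit and are not a measured spread between animals.

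Over all genes of the table, longer transcripts had higher log2 fold changes, and the alpha subunits are long. Their longest transcripts run from 8.39 kilobases (Scn1a) to 11.4 kilobases (Scn8a), against 4.15 to 4.98 kilobases for the beta members. A local trend of log2 fold change on length over 13098 genes stood between 0.036 at the length of Scn1a and 0.053 at that of Scn8a. With the trend subtracted, the median of the 7 members was 0.0038, in place of 0.042 as deposited, with 4 positive, and Scn8a turned negative at -0.012 (unadjusted p = 0.901 from the deposited standard error, a normal test). Scn2a then stood at 0.029, Scn3a at 0.0081, Scn2b at 0.0038, Scn3b at 0.067, Scn1a at -0.067 and Scn4b at -0.085, all on the log2 scale and none past the threshold.

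**Figure D4:**
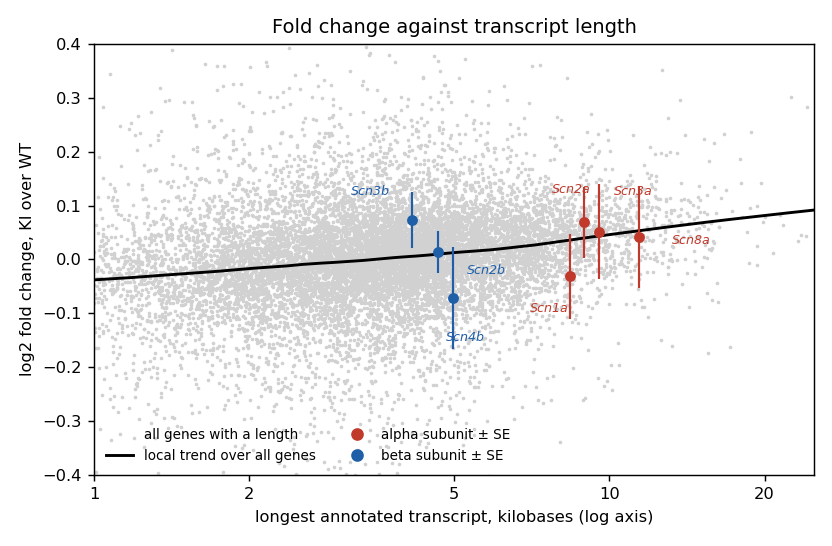
Log2 fold change, KI over WT, from the authors' deposited table against the length of the longest annotated transcript (log axis, kilobases), with the local trend over all genes (black line) and the 7 subunits ± 1 SE. Axes are limited to 1 to 25 kilobases and to ±0.4, so genes beyond are not drawn. The trend reaches 0.053 at the length of Scn8a, and each subunit but Scn3b lies within 1 SE of it.

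Genes of other sodium, leak and axonal potassium channels were then described, with genes that place, bind, process or regulate sodium channels. The lists held 68 genes, of which 64 were tested. None passed the threshold, 41 were positive and 23 negative, and 2 had an unadjusted p under 0.05 by the DESeq2 Wald test. These were Nalf1 and Scn7a, both from the list of other sodium channel and leak channel genes. Over all 13660 genes tested, 0.0732% passed, 51.6% were positive and 3.22% had an unadjusted p under 0.05, so 2 of 64 is near the background. The median log2 fold change of the 64 was 0.019, beside 0.0025 over all genes. The axon initial segment and node list holds the ankyrin and spectrin scaffold and the adhesion molecules that anchor the channels. It had 11 of 18 members positive and a median of 0.038, which was 0.0035 with the length trend subtracted, with Nrcam, a node adhesion molecule, at 0.11 (SE 0.077), Cntn1 at 0.049 (0.037), Cntnap2 at 0.085 (0.070) and Ank2 at 0.081 (0.068) in the authors' deposited table. Ank3, encoding ankyrin-G, the organiser of the initial segment, was at 0.027 (0.10) and Sptbn4, its beta-IV spectrin partner, at -0.027 (0.099) there; both were named after their values were seen.

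Proteins that bind the channel directly include the fibroblast growth factor homologous factors, which hold to the C-terminal tail of alpha subunits and shift inactivation, calmodulin and the ubiquitin ligases that remove channels from the membrane. Of 10 such genes, 7 were positive, with a median of 0.036. By p, the leading genes in the authors' deposited table were Fgf14 at 0.11 (SE 0.072, unadjusted p = 0.140), Nedd4 at 0.047 (0.045) and Fgf13 at 0.055 (0.057). The secretase list, whose proteases cut beta subunits, had 3 of 9 positive and a median of -0.028, with the gamma-secretase genes Ncstn at -0.077 (0.054), Aph1a at -0.067 (0.065) and Aph1b at -0.059 (0.078) and the metalloprotease gene Adam17 at 0.083 (0.085) in the authors' deposited table.

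Axonal potassium channels, which set the return from the spike, and the proteins that assemble with them were divided in sign, with 4 of 9 positive and a median of -0.0021. Kcna4 stood at -0.13 (SE 0.080, unadjusted p = 0.0987), Kcnk4 at -0.11 (0.11) and Lgi1, which encodes a secreted partner, at 0.047 (0.047) in the authors' deposited table. Of the RNA-level regulators, which hold the neuronal repressor Rest and splicing factors of the Nova, Rbfox and Ptbp families, 11 of 12 were positive with a median of 0.023. The largest value there was 0.11 on the log2 scale (Rest, SE 0.17), and Ptbp2 stood at 0.045 (0.048), Rbfox1 at 0.031 (0.034), Nova2 at 0.050 (0.057) and Rcor1 at 0.088 (0.11) in the authors' deposited table. No gene of these lists passed the threshold, so they describe values and no change.

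The sodium leak channel Nalcn, a relative of the voltage-gated channels that holds the resting potential, works with Unc79, Unc80 and Nalf1 (named Fam155a in the annotation). In the authors' deposited table Nalcn was at 0.010 (SE 0.053), Unc79 at 0.052 (0.098) and Unc80 at 0.052 (0.11). Nalf1 was at 0.10 (SE 0.037, unadjusted p = 0.0047, adjusted p = 0.930 by the DESeq2 Wald test), 69th by p among all genes tested, and did not pass.

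Markers of neurons and of oligodendrocytes, which myelinate axons, stood as follows in the authors' deposited table. Of 9 excitatory neuron markers 8 were positive, beside 51.6% of all genes tested, with a median log2 fold change of 0.042. They were led by the vesicular glutamate transporter gene Slc17a7 at 0.062 (SE 0.039) and the upper-layer transcription factor gene Cux2 at 0.077 (0.063). The subunits had a median of 0.042 as deposited but 0.0038 with the length trend subtracted. That trend was not subtracted for the marker lists. Of 10 inhibitory neuron markers 4 were positive, with a median of -0.0068 and values on both sides of 0, from -0.15 to 0.14. The smallest p-values there were those of Pvalb at -0.15 (SE 0.079, unadjusted p = 0.0504 by the DESeq2 Wald test) and Slc32a1 at -0.12 (0.074). Mature oligodendrocyte markers were negative in 10 of 10 cases (median -0.085; Cnp at -0.10, SE 0.038, and Mog at -0.16, 0.067). No gene of these 3 lists passed the threshold, and their part in the values of the subunits was not tested.

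Markers of the thalamus were lower, with 10 of 11 negative, a median of -0.40 and 4 past the threshold in the authors' deposited table. Of the 11, 9 had an unadjusted p under 0.05 by the DESeq2 Wald test. Over all 13660 genes tested, 51.6% were positive, 0.0732% passed and 3.22% had an unadjusted p under 0.05. This list was written with earlier results of these data known, so its counts are no independent result. Tnnt1 fell to 0.396 of the WT level (adjusted p = 0.0013) and Tcf7l2 to 0.528 (adjusted p = 0.0022), both by the DESeq2 Wald test. Thalamic neurons also express sodium channels, and the part of tissue make-up in the values of the 7 subunits was not tested.

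**Figure D5:**
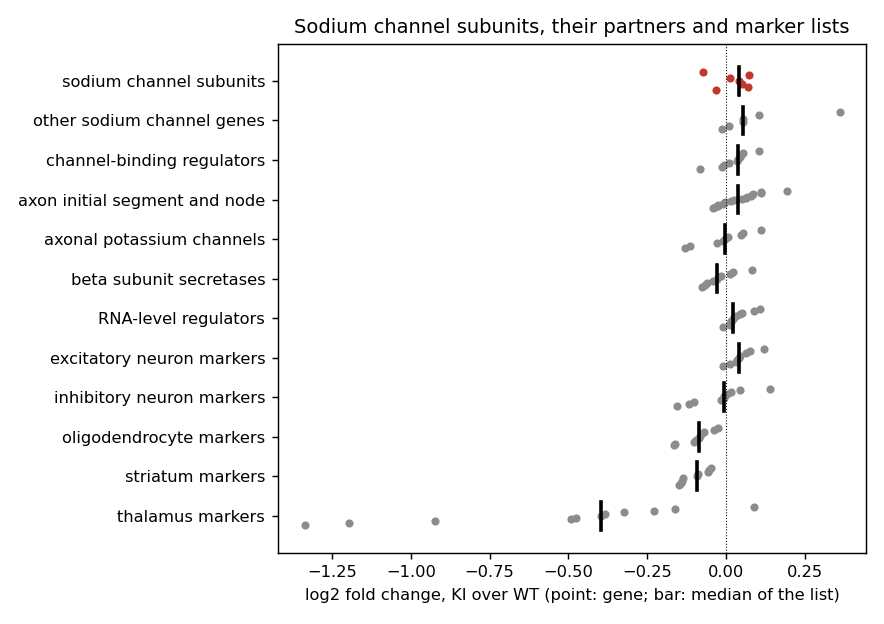
Log2 fold change, KI over WT, in the authors' deposited table for each gene (points), with the median of each list (bar). Shown are the sodium channel subunits (red), and the lists of other channel and partner genes and 5 marker lists (grey). The subunits cluster near 0 with a median of 0.042, and the thalamus markers reach down to -1.34 with a median of -0.40.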

How the data were processed

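Poly(A) RNA from the cortex of 5 KI and 5 WT male mice was sequenced. Per the submitters' processing notes, Trimmomatic 0.39, HISAT2 2.1.0, featureCounts 2.0.0 and DESeq2 1.26.0 were used with mm10; the annotation, strand setting, filters and model are not stated there. The authors deposited, per the file headers, a signal value (mean of normalised counts over all libraries), a log2 fold change with its standard error on the log2 scale, a Wald score, and a p-value with its adjusted p-value. When these columns were checked, the score was the log2 value over its standard error for 13661 genes, and a Benjamini-Hochberg adjustment returned the deposited p-value adjustment for 13660 (both within 1e-06). One gene had no p. The lowest mean normalised count was 24.4, so genes below it were not analysed here.

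Single-gene tests are the authors' own, at an adjusted p of 0.05. Intervals at 95% are normal intervals from the deposited standard error. Symbols and coordinates came from RefSeq (13497 gene numbers named), and lengths, exons and 2 more names from GENCODE M21; 162 stayed unnamed. The length trend was a lowess fit with a span of 0.3. The interval and adjustment steps were tested on simulated data. The labels are silent on litters, so p-values measure the spread between these samples.

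The members and all lists were chosen with earlier results of these data known. Some listed genes are not reported here and stay out of the list counts. Named genes were the members, Chd8, Scn7a, Scn9a and the leak channel genes, and up to 4 per partner list and 2 per marker list with the smallest p; Ank3, Sptbn4, Rest and the genes interleaved with the chromosome 2 cluster were chosen after their values were seen. No list was tested. With 1 contrast, genes of like pattern could not be sought. Software was Python 3.11.15, pandas 2.3.3, scipy 1.17.1 and statsmodels 0.14.6.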

Additional observations from a re-analysis of the deposited data

How the results depend on the processing

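The count of 0 called subunits of 7 was the same at adjusted thresholds of 0.1 and 0.01, with minimum mean normalised counts of 50 and 200, after centring on the median of all genes (a shift of 0.0025), with the length trend removed, and at an unadjusted p under 0.05, which was chosen after seeing the data, as was the length per longest transcript. Thresholds and count minimums leave the log2 fold changes as they are, and they could not have changed this count of 0. The smallest unadjusted p of the members was 0.164 (Scn3b, DESeq2 Wald test), and their lowest mean normalised count was 1213 (Scn3a). With the length trend removed, 1 of 7 changed sign, that of Scn8a (-0.012), and with centring none did. The count of called genes in the lists of other channel and partner genes was 0 of 64 in each alternative run for it (centring and length trend). Medians of the 6 lists moved by less than the median standard error of their genes. Without the length trend, however, that of the list with Scn7a, Scn9a and the leak channel genes was 0.0011 in place of 0.052. That of the initial segment and node list was 0.0035 in place of 0.038. Chd8 passed in each alternative run for it, at 0.45 with the length trend removed. Over all genes, 10 passed as deposited, 6 at a threshold of 0.01 and 5 with a log2 change of at least 0.5, the last without Chd8; 7 passed with a minimum count of 200. No paired analysis was possible because the deposited table holds no value per library. Leaving out single libraries and an edgeR fit were not run for the same reason. Depth per library is unknown, and the standard errors set what could be called.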

Other observations

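The remaining marker lists are given as values from the authors' deposited table. Striatal markers were led by Drd1, a dopamine receptor gene, at a log2 fold change of -0.14 (SE 0.10). Astrocyte markers had a median of -0.0038 with 4 of 8 positive, microglial markers -0.0055 with 3 of 8, endothelial markers -0.010 with 4 of 8 and oligodendrocyte precursor markers 0.054 with 4 of 6, and no gene of these 4 lists passed the threshold. Choroid plexus markers had a median of -0.18 with 1 of 8 positive and none past the threshold, while 5 of 8 had an unadjusted p under 0.05 by the DESeq2 Wald test. Meningeal fibroblast markers had a median of -0.23 with 0 of 9 positive and 4 of 9 with an unadjusted p under 0.05. Of them 1, the growth factor gene Igf2, was past the threshold (log2 fold change -0.29, SE 0.059, adjusted p = 0.0022 by the DESeq2 Wald test). Over all genes tested, 51.6% were positive, 0.0732% passed and 3.22% had an unadjusted p under 0.05.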
